A study of Mus musculus with 4 samples.

Results

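The 86 cytosolic ribosomal protein genes among the 27998 genes in the files were taken by symbol: Rpl or Rps followed by a digit, together with Rplp0, Rplp1, Rplp2 and Rpsa. Symbols with -ps, the Rps6k kinases and Rpl29 were left out. Of the 86 genes, 76 encode subunit proteins (31 of the small 40S subunit, 42 of the large 60S subunit and the 3 stalk proteins Rplp0, Rplp1 and Rplp2). A further 9 are copies of such genes (Rpl3l, Rpl6l, Rpl7l1, Rpl10l, Rpl22l1, Rpl36al, Rpl39l, Rps27l and Rps27rt), of which Rpl6l is annotated as a pseudogene. Rps19bp1, a binding partner of Rps19, was taken in by its symbol alone. The genes were read in immune cells of B16F10-OVA tumours, a mouse melanoma line that expresses the model antigen ovalbumin. Hosts were C57BL/6 mice, called wild-type below, and mice labelled miR-155 TCKO, a conditional knockout of miR-155 in T cells, called knockout below. Under the skin of each, 1000000 tumour cells were injected, and tumours were taken at day 9 or day 12. Live CD45+ cells were sorted and counted by droplet 3′ single-cell RNA sequencing in 4 libraries, 1 per genotype and day. Tumours were pooled in each group, so no group had a replicate, and the driver of the T cell deletion and the ages of the mice are not given in the sources used here.

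Ribosomal proteins build the 2 subunits that translate mRNA, and each ribosome holds 1 copy of nearly every one of them, so their genes are transcribed and translated together. Their mRNAs begin with a 5′ terminal oligopyrimidine tract (TOP), a cytosine followed by a run of pyrimidines, through which mTOR and Larp1 set their translation. Resting T cells hold many ribosomal protein mRNAs relative to their other transcripts, and activation adds mRNA of effector and cell cycle genes. miR-155 is a microRNA of activated lymphocytes and myeloid cells, cut from the transcript of Mir155hg.

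The starts of 5 genes on which the results turn show how a TOP start looks and which copies share it. Each line runs from 10 bases before to 20 bases after the annotated start, read 5′ to 3′ from the RefSeq promoters of GRCm38.p6, and capitals mark the pyrimidine run that begins at the start base. Rps27 (chr3:90213629-90213658, minus strand), its copy Rps27rt (chr9:114982720-114982749, minus strand) and Rps15a (chr7:118116128-118116157, minus strand) have a cytosine start with at least 5 pyrimidines. Rps27l (chr9:66946076-66946105, plus strand) and Rpl22l1 (chr3:28805498-28805527, plus strand) do not at their annotated start. Both have such a run that begins within 5 bases of that start.
Rps27: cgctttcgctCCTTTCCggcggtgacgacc
Rps27rt: ttatcccttgCTTTCCggcggtgacgacct
Rps15a: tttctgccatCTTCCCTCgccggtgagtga
Rps27l: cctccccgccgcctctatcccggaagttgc
Rpl22l1: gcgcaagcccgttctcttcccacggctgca
Rps27 and Rps27rt shared an unbroken run of 38 bases from base 2 of the Rps27 start and base 1 of the Rps27rt start, and their 3′ ends, where tags are counted, were not compared, so how reads fall between this gene and its copy is uncertain. A promoter was found for 66 of the 86 genes. Among the 57 subunit genes with one, 13 (22.8%) had a TOP start at an annotated start, against 813 of 27025 genes in the table (3.01%), 5 of 15 other known TOP mRNA genes (33.3%) and 0 of 68 mitochondrial ribosomal protein genes. With the run allowed to begin up to 5 bases to either side of the start, the share was 47.4% of subunit genes and 21.2% of all genes. The letters CCGGAAG, searched on both strands in the 250 bases before and 50 bases after the start, were in 42.1% of subunit genes, 36.8% of mitochondrial ribosomal protein genes, 13.3% of the other TOP mRNA genes and 9.93% of all genes.

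The 4 libraries held 1778 to 3749 barcodes and 18783490 to 33902064 unique molecules (UMIs), and 1777 to 3737 cells were kept. Cells were assigned by the UMIs of marker genes to 7 classes, each with 33 cells or more per library. The lymphoid classes were CD8 T cells, other T cells and natural killer (NK) cells. The rest were the conventional dendritic cells cDC1 and cDC2, mature dendritic cells (mature DC), and monocytes or macrophages. Other T cells had T cell markers and no UMI of Cd8a, Cd8b1, Cd4 or the regulatory marker gated on. This gate cannot tell them from CD4 or regulatory T cells whose marker gave no UMI. NK markers summed to 330 to 969 CPM (UMIs per 1000000 UMIs of the class and library) in other T cells. The class names stand for these gates, and 18.2% to 23.7% of cells passed none. Ptprc, the gene of CD45, was seen in 85.0% to 95.4% of cells. Mir155hg gave 89 UMIs in the T cells of wild-type and 6 in those of knockout at day 9, against 20 and 4 at day 12, in 856, 804, 498 and 237 T cells. Pairs of libraries shared 4 to 16 barcodes. Neutrophil markers reached 506 CPM in CD8 T cells and 517 CPM in other T cells of the knockout library at day 12. They reached at most 22.8 CPM in these classes of the other libraries. Their part in the results was not tested.

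Ribosomal protein genes gave the largest share of UMIs in T cells and the smallest in monocytes or macrophages, and the 7 classes kept nearly the same order in each library. In CD8 T cells, the share was 31.6% of UMIs in wild-type and 42.1% in knockout at day 9, and 32.9% and 39.5% at day 12. In monocytes or macrophages it was 18.0%, 19.8%, 16.4% and 16.9% in the same order of libraries. The classes did not overlap: the lowest T cell value lay well above the highest monocyte or macrophage value. Means were 36.5% ± 5.05 (SD, n = 4 libraries) in CD8 T cells, 34.9% ± 2.53 in other T cells, 30.0% ± 1.42 in NK cells, 23.7% ± 1.42 in cDC2, 22.7% ± 1.67 in cDC1, 20.9% ± 2.02 in mature DC and 17.8% ± 1.47 in monocytes or macrophages. Within a library, CD8 T cells exceeded other T cells in 2 of 4 libraries, so these neighbours did not differ beyond their spread. Every other pair of neighbours in this order kept its order in 4 of 4 libraries, for example cDC2 above cDC1 by 1.05 ± 0.576 percentage points. With 4 libraries, a two-sided exact permutation test over the pairs cannot go below p = 0.125. Exact binomial intervals for counting error were narrow (18.8% to 19.1% around the 18.9% of wild-type mature DC at day 9, the class sum with 33 cells).

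**Figure D1:**
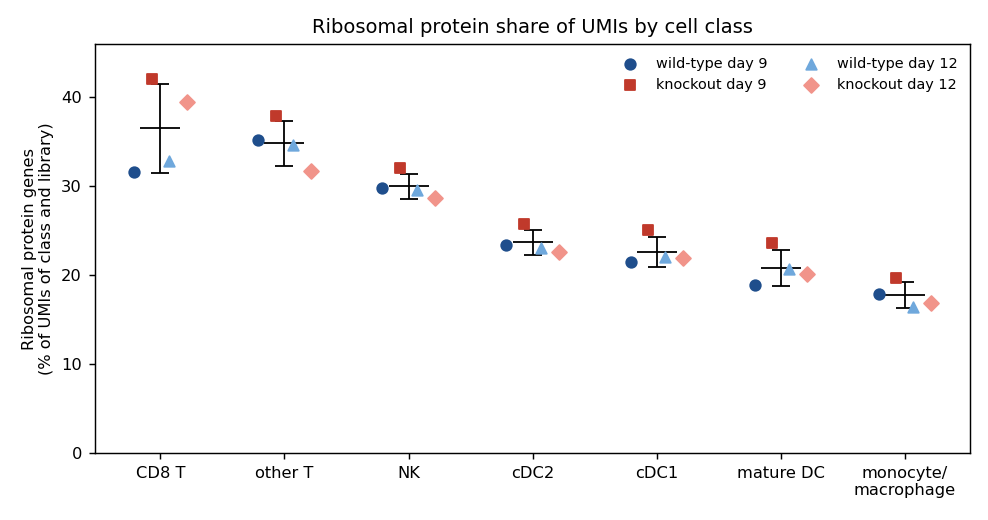
Share of all UMIs that came from the 86 ribosomal protein genes, in percent, for 7 cell classes (x axis) in 4 libraries (symbols); horizontal bars are means over the 4 libraries and whiskers 1 SD. CD8 T cells span 31.6% to 42.1% and monocytes or macrophages 16.4% to 19.8%, and in CD8 T cells alone both knockout libraries lie above both wild-type libraries.

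The UMIs of the 76 subunit genes were divided between the subunits in nearly the same way in every class. Genes of the 40S subunit gave 43.4% to 46.8% of the subunit genes' UMIs over all 28 class sums, and the 3 stalk genes gave 4.38% to 5.65%. The highest stalk share was in knockout CD8 T cells at day 9, and the lowest was in wild-type mature DC at day 12. Among the members with the highest mean level were Rpl13a (6148 CPM over the 28 sums), Rpl13 (5935 CPM), Rpl32 (5543 CPM) and Rps23 (5540 CPM). A 3′ tag count gives 1 UMI per captured molecule, so these levels were not divided by transcript length.

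Each class was set against the mean of the other 6 classes over the 28 class sums, with library as a term (edgeR's quasi-likelihood test, Benjamini-Hochberg adjustment over 9317 genes, threshold 0.05). The low-count filter left 84 of the 86 members, without Rpl10l, which had 0 UMIs, and Rpl3l. Sums of 1 library share mice and preparation. The p-values measure the spread left between the 28 class sums after the class and library terms, not the spread between animals.

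CD8 T cells had higher levels of nearly the whole set. There, 77 of 84 members were higher and 2 lower, when 25.8% of all genes were called higher and 24.9% lower, and the median log2 difference was 0.52 for the members and 0.02 for all genes. All but 3 of the 76 subunit genes were among those called higher (29 of 31 of the 40S subunit, 44 of 45 of the 60S subunit with the stalk). Rpl12, which sits at the base of the stalk, stood in CD8 T cells at 2643 CPM (wild-type) and 4569 CPM (knockout) for day 9, with 3251 and 3351 CPM for day 12. The same gene reached 961 to 1212 CPM in monocytes or macrophages, so the classes did not overlap. Its difference from the other classes was 1.01 on the log2 scale in CD8 T cells (adjusted p = 5.4e-11). Rplp0, the stalk protein that carries Rplp1 and Rplp2, had 6666 to 8361 CPM in CD8 T cells and 2286 to 3683 CPM in monocytes or macrophages, and its log2 difference in CD8 T cells was 0.85 (adjusted p = 7.2e-11). Rps15a followed with 0.96, Rpl13a with 0.85, Rps20 with 0.81 and Rpl5, which binds the 5S RNA and Mdm2 together with Rpl11, with 0.74.

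A few members stood apart from this shift. Rpl10, an X-linked gene (chromosome X, 74270816 to 74273135, GRCm38) whose protein lies near the peptidyl transferase centre, had a log2 difference of -0.11 in CD8 T cells (adjusted p = 0.15), with 3662 to 4778 CPM there and 3566 to 4260 CPM in monocytes or macrophages. Rps27l fell by 0.73 in CD8 T cells (adjusted p = 1.3e-06). Rpl7l1, related to a yeast protein of ribosome assembly, was the second member called lower (-0.30, adjusted p = 0.030), a call lost without any 1 of the 4 libraries. The largest difference, 2.26 for Rpl39l (adjusted p = 0.041), rested on 6, 5, 16 and 1 UMIs in the CD8 T cells of the 4 libraries, and the call was lost without wild-type at day 9 (adjusted p = 0.051).

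Other T cells resembled CD8 T cells. In them, 73 of 84 members were higher and 2 lower, against 21.5% and 15.6% of all genes, with a median log2 difference of 0.44. Rpl12 (0.91), Rps27 (0.88), Rpl13a (0.79) and Rps15a (0.78) led the subunit genes, and Rps27l (-1.15) and Rpl7l1 (-0.45) were the members called lower. NK cells lay closer to the average of the classes: 25 members were higher and 6 lower, against 21.5% and 20.0% of all genes, so the share called higher was near that of all genes. In NK cells, Rpl3, a core protein of the large subunit, was 0.42 higher on the log2 scale (adjusted p = 8.7e-06) and Rps19 was 0.37 lower (log2 difference -0.37, adjusted p = 0.0011). The count of members called higher in NK cells was 68 with no scaling factors and 13 without wild-type at day 12.

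**Figure D2:**
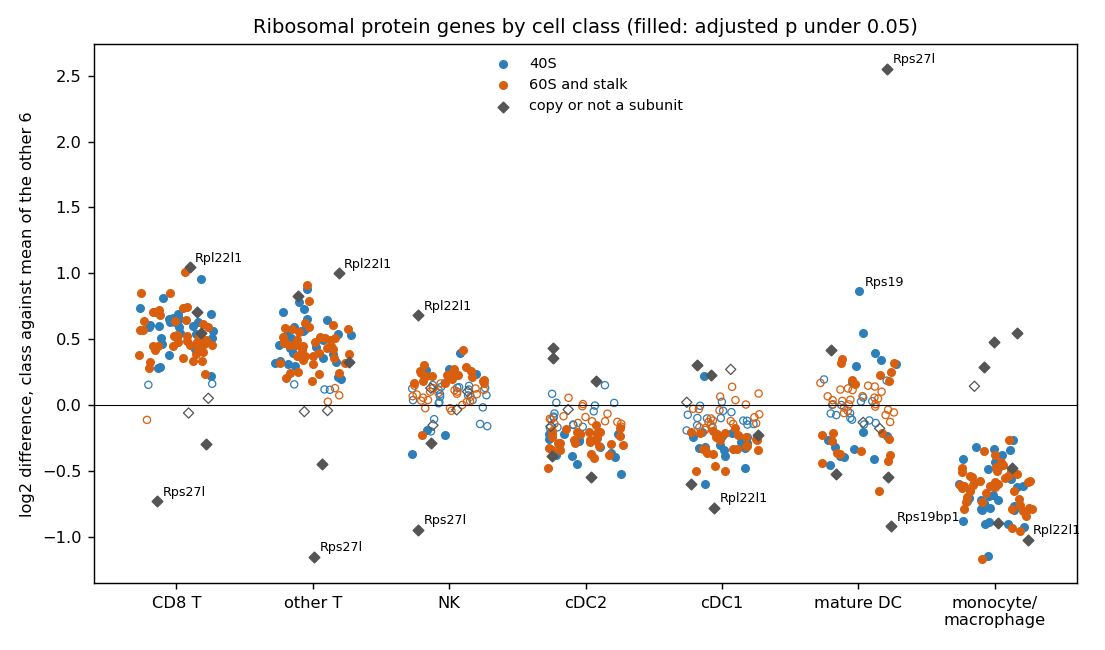
Log2 difference of each tested member between a class and the mean of the other 6 (y axis), for 7 classes (x axis); filled points have an adjusted p under 0.05, colours mark the subunit, diamonds mark copies and Rps19bp1, horizontal scatter is for display, and Rpl39l is not drawn. Most subunit genes lie above 0 in both T cell classes and below 0 in monocytes or macrophages, and Rps27l stands at 2.56 in mature DC.

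Monocytes or macrophages, the phagocytes of the infiltrate, had lower levels of all subunit genes. All 76 subunit genes were called lower, with 79 of 84 members lower and 3 higher, against 28.8% and 31.3% of all genes, and the count of 79 was the same without any 1 library. The median log2 difference was -0.62 for the members and -0.02 for all genes. Rpl13a, which is known in human monocytic cells to leave the ribosome and block translation of selected mRNAs after interferon-gamma, differed by -1.17 (adjusted p = 8.7e-14). Its levels were 2662, 3378, 2778 and 2640 CPM in monocytes or macrophages and 7989, 11608, 9620 and 9567 CPM in CD8 T cells (wild-type and knockout at day 9, then at day 12). The difference from the other classes lay between -1.22 and -1.14 in the 4 libraries. Rpsa, the 40S protein also known as the laminin receptor, followed with -1.14 (adjusted p = 1.2e-12), at 1419 to 2012 CPM against 2426 CPM or more in every other class sum. The 3 members called higher, Rps19bp1 (0.55), Rpl7l1 (0.48) and Rps27l (0.29), were outside the 76 genes counted here as subunit genes. The call of Rps27l was lost without wild-type at day 12 in the sums left (adjusted p = 0.10).

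Of the members with known roles, Rpl10 was described above as an exception, Rpl22 had log2 differences of 0.33 in CD8 T cells and -0.50 in monocytes or macrophages, and 7 others were also called higher in the first and lower in the second. Rps6, the protein phosphorylated by S6 kinases, had 4695, 7352, 5680 and 6683 CPM in the CD8 T cells of the 4 libraries and 2708, 3279, 2552 and 2414 CPM in monocytes or macrophages, with no overlap. Its log2 differences were 0.59 (adjusted p = 9.3e-08) and -0.72 (adjusted p = 8.9e-09). The partner proteins Rpl5 (0.74 and -0.74) and Rpl11 (0.48 and -0.46) were called in both classes, and so were the stalk genes Rplp1 (0.74 and -0.67) and Rplp2 (0.57 and -0.58) and the X-linked Rps4x (0.51 and -0.73). Rps27a, which is made as a fusion with ubiquitin, differed less (0.28 and -0.27), and its lowest CD8 T cell value, 4437 CPM, lay below its highest monocyte or macrophage value, 4510 CPM. In knockout against wild-type CD8 T cells none of these 7 passed the threshold, with log2 changes from 0.33 for Rpl11 to 0.56 for Rps4x (adjusted p = 0.37 and 0.066).

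Conventional dendritic cells lay between these poles. In cDC1, 43 members were lower and 3 higher, against 16.2% and 20.0% of all genes, and in cDC2 49 were lower and 3 higher, against 13.2% and 19.3%. Median log2 differences were -0.20 and -0.21. In cDC1, Rpl22l1 (-0.78), Rps27 (-0.60) and Rplp2 (-0.50) were among the lowest, and in cDC2 Rps27 (-0.53), Rplp1 (-0.48) and Rps15a (-0.45). The counts of lower members fell to 23 in cDC1 without wild-type at day 12 and to 27 without knockout at day 9. In cDC2 they fell to 24 without knockout at day 9 and to 28 without wild-type at day 12.

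Mature DC, which carry antigen to lymph nodes and express Ccr7, held members called in both directions, and the direction of the set as a whole depended on the scaling. With TMM scaling, 18 members were higher and 24 lower, against 28.0% and 25.6% of all genes, and the median log2 difference was -0.01 for the members and -0.06 for all genes. With no scaling factors the median of all genes moved by -0.38 and that of the members to -0.37, with 4 members higher and 71 lower. Rps19, which is mutated in Diamond-Blackfan anaemia in humans, was higher in mature DC by 0.86 (adjusted p = 4.5e-10), and Rpsa by 0.55 (adjusted p = 1.8e-07). Rps19 stood at 5984, 7575, 6579 and 7306 CPM in the 4 libraries, above the 3567 to 5246 CPM of cDC1 and cDC2 with no overlap. Rpl3 was lower by 0.65 (log2 difference -0.65, adjusted p = 1.5e-08), at 1087 to 1958 CPM against 2198 to 2873 CPM in cDC1 and cDC2. Rps27 (0.34) and Rps27rt (0.41) were called higher, and both calls were lost without wild-type at day 12 or without knockout at day 12, and with no scaling factors the difference of Rps27 was -0.021. The count of members called higher was 8 without knockout at day 12 and 10 without wild-type at day 12. The 3.37 of Rpl39l (adjusted p = 0.0021) rested on 34 UMIs of the knockout library at day 12, with 0 or 1 in the others, and DESeq2 did not call it (adjusted p = 0.12).

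Rps27l and Rpl22l1 were the copies with the largest called differences between classes, apart from the few UMIs of Rpl39l. Rps27l, a copy of Rps27 that p53 induces, stood at 2966, 1830, 2279 and 2587 CPM in mature DC and at 252 to 396 CPM in other T cells. No other class exceeded 889 CPM, so mature DC did not overlap with any class. The log2 difference of mature DC from the other classes was 2.56 (adjusted p = 6.4e-20), between 2.33 and 2.77 in the 4 libraries. Of the UMIs of Rps27 and Rps27l together, Rps27l gave 38.0%, 31.5%, 41.7% and 37.3% in mature DC, 19.1% to 33.7% in monocytes or macrophages and 3.19% to 6.06% in other T cells. In CD8 T cells it gave 10.7% and 10.4% in the wild-type libraries and 3.92% and 3.98% in the knockout libraries.

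Rpl22l1 is the paired copy of Rpl22, an RNA-binding protein needed for normal T cell development in mice. It was higher in the 3 lymphoid classes, with log2 differences of 1.05 in CD8 T cells (adjusted p = 1.1e-10), 1.00 in other T cells (adjusted p = 4.2e-10) and 0.68 in NK cells (adjusted p = 4.3e-07). It was lower in monocytes or macrophages (-1.02), cDC1 (-0.78), mature DC (-0.55) and cDC2 (-0.38). Its levels were 1323, 1358, 1331 and 1579 CPM in CD8 T cells and 352, 433, 362 and 459 CPM in monocytes or macrophages. Of the UMIs of Rpl22 and Rpl22l1, the copy gave 39.1% to 51.0% in the 3 lymphoid classes and 21.1% to 35.0% in the 4 myeloid and dendritic classes, with no overlap.

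The other copies varied less. Rps27rt gave 5.10% to 7.50% of the UMIs of Rps27 and Rps27rt in every class and library, and Rpl6l gave 3.70% to 7.17% of those of Rpl6 and Rpl6l. Rpl36al gave 25.6% to 36.6% of the UMIs of Rpl36a and Rpl36al in the lymphoid classes and 42.2% to 51.5% in cDC1, cDC2 and monocytes or macrophages. The level of Rpl36al itself was 962 to 1250 CPM in all of these and 540 to 689 CPM in mature DC, where it gave 32.6% to 36.2% of the pair. Its log2 difference in mature DC was -0.52 (adjusted p = 3.5e-07). The muscle copy Rpl3l had 121 UMIs and the testis copy Rpl39l had 166 UMIs in all kept cells, the lowest of the detected members. Rps19bp1 (10.6 to 61.3 CPM) and Rpl7l1 (35.0 to 104 CPM) followed.

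**Figure D3:**
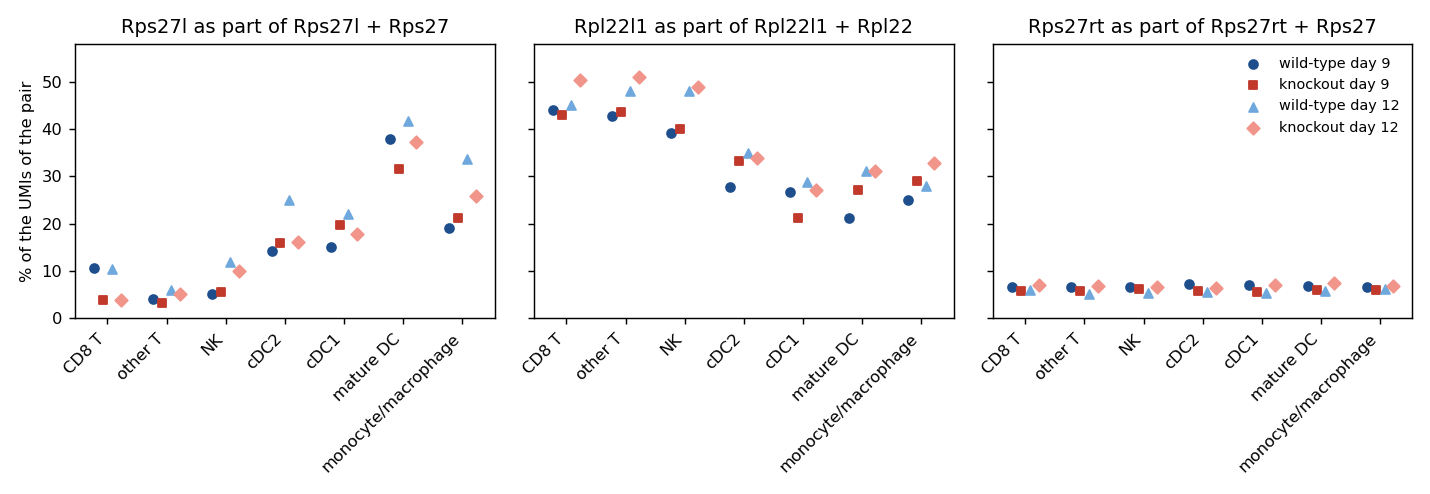
Part of the UMIs of a gene pair that came from the copy, in percent (y axis), for Rps27l with Rps27 (left), Rpl22l1 with Rpl22 (middle) and Rps27rt with Rps27 (right), by cell class (x axis) and library (symbols). Rps27l is highest in mature DC (31.5% to 41.7%), Rpl22l1 is higher in the 3 lymphoid classes than in the others, and Rps27rt stays between 5.10% and 7.50%.

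The genotypes were compared within each class. In CD8 T cells the ribosomal protein share was higher in knockout by 10.4 percentage points at day 9 and by 6.59 at day 12. The median CD8 T cell held 3844 UMIs of members and 8203 of other genes in wild-type at day 9, against 2358 and 2608 in knockout, 1707 and 2839 in wild-type at day 12, and 1936 and 2584 in knockout at day 12. Cells of wild-type at day 9 thus had the most member UMIs and still the lowest share. Within cells of 3000 to 12000 UMIs the differences were 11.2 and 8.47 points. In the other 6 classes the knockout share was higher at day 9 by 1.81 to 4.78 points, and at day 12 the difference ran from -2.89 points in other T cells to 0.530 in monocytes or macrophages.

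The CD8 T cells of the libraries were not the same mix. Cells with naive-like markers (at least 3 UMIs of a marker list that includes Lef1, Tcf7, Ccr7, Dapl1, Igfbp4 and Klf2, none of the exhausted-type markers Pdcd1, Lag3, Havcr2 and Tox, and not cycling) made up 9.26% of CD8 T cells in wild-type and 69.5% in knockout at day 9, and 39.1% and 67.2% at day 12. Cycling cells made up 55.7% and 5.21% at day 9, and 26.5% and 9.84% at day 12. The ribosomal protein share of naive-like cells was 43.8% in wild-type and 46.3% in knockout at day 9, and 43.6% and 42.1% at day 12. In cycling cells it was 30.5%, 30.0% and 29.2% in the 3 libraries with at least 20 of them. Exhausted-type cells had 31.7%, 31.2% and 29.2% in the same libraries, and the value of knockout at day 9 came from 14 cells. Within each of these gates the genotypes lay closer together at day 9 than over all CD8 T cells. Cells in none of these gates differed more, with 36.1% and 41.0% at day 9 and 31.5% and 42.2% at day 12. Each gate had 1 library per genotype and day, so no test was made.

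**Figure D4:**
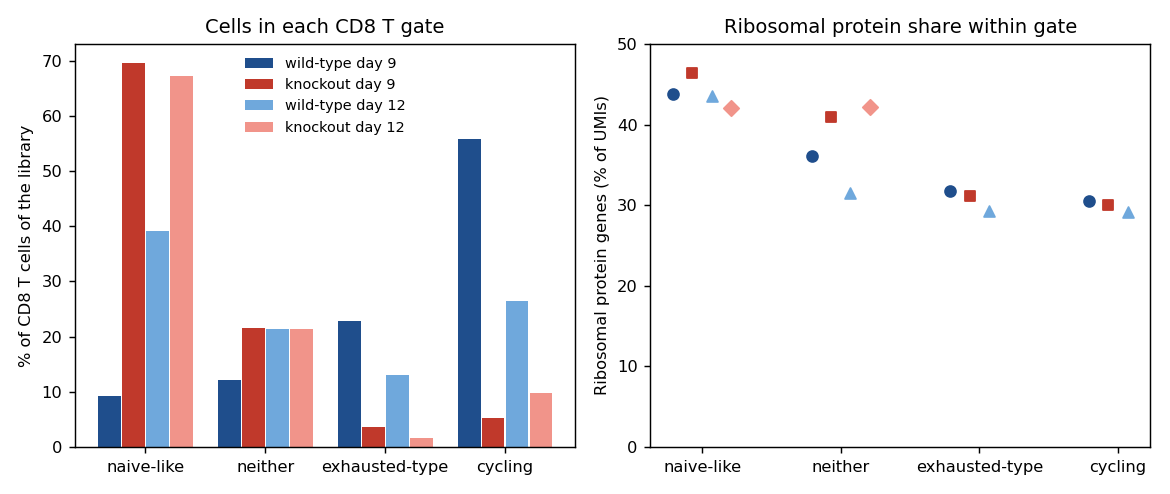
Left, percent of the CD8 T cells of each library (bars, colours as labelled) in the naive-like, exhausted-type and cycling gates and in neither; right, ribosomal protein share of UMIs in percent within each gate, for gates with at least 10 cells. Naive-like cells have shares of 42.1% to 46.3% and cycling cells 29.2% to 30.5%, while knockout libraries hold mostly naive-like cells (69.5% and 67.2%).

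Across genes, the genotype effect common to both days was tested in each class over 4 sums with 1 residual degree of freedom (edgeR's quasi-likelihood test, Benjamini-Hochberg adjustment over 5308 to 10635 genes). For CD8 T cells the fit used a spread pooled over genes, with no weight on a gene's own spread. In CD8 T cells 10 of 83 members were higher in knockout and 0 lower, against 5.97% and 6.01% of all genes, and the median log2 change was 0.42 for the members and 0.02 for all genes. Of the 10, 7 belong to the 40S subunit: Rps27 (log2 change 1.04, adjusted p = 5.1e-05), Rps29 (0.83, adjusted p = 0.0022), Rps19 (0.79, adjusted p = 0.0042), Rps28 (0.75), Rps24 (0.70), Rps14 (0.66) and Rps16 (0.66). Rps27rt (1.03) and Rpl36a (0.62) were also among the 10. At day 9, Rps27 stood at 4618 CPM (wild-type) and 7975 CPM (knockout), and at day 12 the values were 4322 and 8942 CPM. Both knockout values lay above both wild-type values. The count of 10 was 4 with no scaling factors, 5 with no filter, 2 with DESeq2, 1 with 1 more marker UMI per gate and 2 at a limit of 5% mitochondrial UMIs. With cycling cells left out it was 0, and the 7 genes of the 40S subunit and Rps27rt had log2 changes of 0.40 to 0.68 (adjusted p from 0.079 to 0.46), while the share differences were 9.24 and 5.08 points at day 9 and day 12. In naive-like cells alone it was also 0, and the change of Rps27 was 0.05. Naive-like cells were chosen as a comparison after the data were seen. Markers of dissociation stress moved with the genotype in CD8 T cells: their sum was 511 CPM (wild-type) and 1054 CPM (knockout) for day 9, and 727 and 1428 CPM for day 12. Jun (log2 change 2.10), Fos (1.46) and Junb (1.19) were called higher among the 8 genes of that list tested, and their part in the result was not tested.

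Rps27l went the other way in CD8 T cells, at 554 CPM (wild-type) and 326 CPM (knockout) for day 9 and 502 and 371 CPM for day 12, with a log2 change of -0.49 that missed the threshold (adjusted p = 0.11). Rps2, Rpl7a and Rpl41 had the lowest log2 changes among the subunit genes, -0.0074 for Rpl7a and 0.10 for both others, and were picked for those values. In the other 6 classes 0 members were called in either direction, when the shares of all genes called were 0.141% in other T cells, 0.234% in NK cells, 0.76% in cDC1, 0.123% in cDC2, 0.0377% in mature DC and 1.62% in monocytes or macrophages. Of these members 0 had an unadjusted p under 0.05, a threshold for which no share of all genes is given here. DESeq2 made no call among them either. Their median log2 changes over the members ran from -0.04 in other T cells to 0.16 in mature DC. By day, the medians were positive in all 7 classes at day 9 (0.14 to 0.53) and negative in 6 of 7 at day 12 (-0.22 to -0.01), with 0.30 in CD8 T cells.

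The day effect, fitted in the same model, gave 0 calls among the members in all 7 classes, when the shares of all genes called were 2.95% in CD8 T cells, 0.219% in other T cells, 6.45% in NK cells, 1.16% in cDC1, 0.0272% in cDC2, 0.245% in mature DC and 6.5% in monocytes or macrophages. DESeq2 gave 0 calls as well. At an unadjusted p under 0.05 there were 4 members in NK cells and 3 in monocytes or macrophages. The shares of all genes above are for the adjusted threshold and cannot be set beside these counts. Rps27rt and Rps27l came closest, in NK cells, with log2 changes to day 12 of -0.66 (adjusted p = 0.058) and 0.54 (adjusted p = 0.073).

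Single members also moved with the library in all classes at once. Of the 76 subunit genes, 10 had their lowest CPM in the wild-type library at day 12 in all 7 classes: Rpl27, Rpl34, Rpl36, Rpl37, Rpl38, Rpl39, Rps21, Rps27, Rps28 and Rps29. In contrast, 36 subunit genes had their highest CPM in the knockout library at day 9 in all 7 classes. The summed ribosomal protein share was also highest in that library in all 7 classes. The order of libraries was not counted for genes outside the set. Whether these counts are particular to ribosomal protein genes was therefore not tested. Rps29 stood at 4558, 3615, 2692 and 4095 CPM in monocytes or macrophages and at 5216, 4674, 3245 and 4380 CPM in NK cells (wild-type and knockout at day 9, then at day 12). At day 12 its CPM was thus higher in knockout in cells outside the T cells too, and at day 9 it was lower in knockout in 6 of 7 classes, all but CD8 T cells. Rps27 and Rps28 showed the same order. A library and its group cannot be told apart with 1 library per group.

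**Figure D5:**
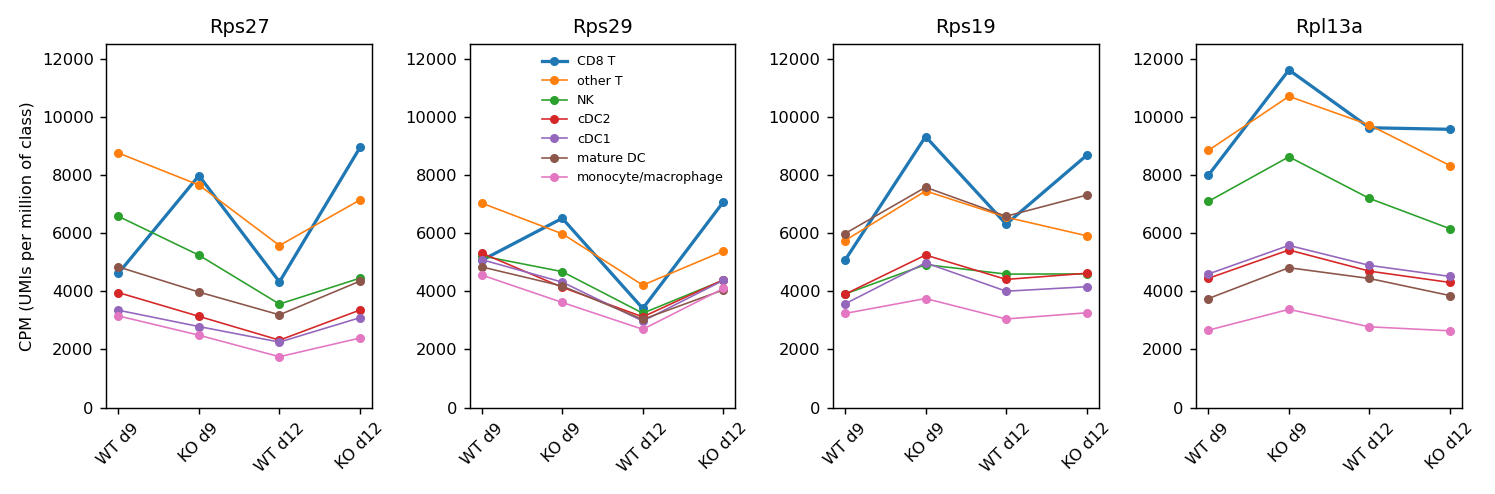
CPM of Rps27, Rps29, Rps19 and Rpl13a (panels) in the 4 libraries (x axis, WT wild-type, KO knockout, d day) with 1 line per cell class; lines join points of a class for reading only. Rps27 and Rps29 are lowest in wild-type at day 12 in all 7 classes, Rps19 and Rpl13a are highest in knockout at day 9 in all 7, and CD8 T cells (thick line) have both knockout values of Rps27 above both wild-type values.

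Genes that work with ribosomal proteins were set beside them from 5 lists. Of 22 other TOP mRNA genes, 15 were higher in CD8 T cells and 0 lower (median log2 difference 0.39), and 20 were lower in monocytes or macrophages and 0 higher (-0.49). For all genes, the shares called higher and lower were 25.8% and 24.9% in CD8 T cells, 31.3% and 28.8% in monocytes or macrophages, and 28.0% and 25.6% in mature DC. Eef1b2, a subunit of the elongation factor, had 0.60 and -1.10 in these classes, and Npm1, a nucleolar chaperone, 0.88 and -0.75. Of 24 tested genes of ribosome biogenesis, 20 were higher in CD8 T cells (median 0.66), among them Rrp1b (1.53) and the pseudouridine synthase Dkc1 (1.25). In mature DC 23 of 24 were lower (median -1.60), with Dkc1 at -2.69, and Myc, the transcription factor that drives many of them, had a log2 difference of -3.32 (adjusted p = 6.4e-07). In monocytes or macrophages 3 biogenesis genes were higher and 3 lower (median 0.02), while all subunit genes were lower.

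Of 76 tested mitochondrial ribosomal protein genes, 23 were higher and 2 lower in CD8 T cells (median 0.16), and 25 were higher and 9 lower in monocytes or macrophages (median 0.08). Both counts of higher genes were near the shares of all genes called higher, 25.8% and 31.3%. In mature DC 36 were lower and 11 higher, against 25.6% and 28.0% of all genes, with Mrpl14 at 2.09 and Mrpl38 at 1.94 against Mrps28 at -1.58. Among 11 regulators upstream, Eif4ebp1, which holds back cap-dependent translation, was lower in CD8 T cells (-1.19) and higher in monocytes or macrophages (1.97). In knockout CD8 T cells Myc was higher (log2 change 1.17, adjusted p = 0.00052 by edgeR's quasi-likelihood test). Of the 22 TOP mRNA genes 0 were higher there and 1 was lower, Nap1l1 (-0.81). The shares of all genes in that genotype comparison were 5.97% higher and 6.01% lower, so both counts were near them. Markers of dissociation stress moved with the classes as well: 6 of 9 were lower and 1 higher in CD8 T cells, against 24.9% and 25.8% of all genes, and 5 were higher and 1 lower in monocytes or macrophages, against 31.3% and 28.8%. Their summed level was 511 to 1428 CPM in CD8 T cells and 2008 to 2725 CPM in monocytes or macrophages, and their part in the differences between classes was not tested.

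The classes with fewer cells were described without a test. B cells, with 4 to 11 cells per library, had ribosomal protein shares of 39.5%, 28.3%, 38.9% and 33.8%. CD4 T cells (17 to 49 cells) had 34.1%, 30.6%, 31.1% and 27.2%, and regulatory T cells (19 to 39 cells) had 25.8%, 24.2%, 25.2% and 26.0%. Plasmacytoid dendritic cells (13 to 210 cells) had 26.1%, 24.8%, 23.3% and 23.5%. Markers of other cells were present in these gates: in regulatory T cells of the knockout libraries, the summed level of mature DC markers was 509 CPM (day 9) or 1263 CPM (day 12), and Lyz2 stood at 3993 CPM (day 9). Cycling cells made up 8.0% to 47.4% of regulatory T cells and 0% to 14.3% of CD4 T cells. Their part in these shares was not tested.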

How the data were processed

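The deposited values are UMI counts per gene and barcode, for which the submitters' processing notes name Cell Ranger 2.0.2 and the build mm10. The files held 18783490 to 33902064 counts per library. Cells with at least 200 genes, at most 10% mitochondrial and at most 5% haemoglobin UMIs were kept and gated on marker UMIs. Each gate left out barcodes above set limits on the markers of some other lineages. The T cell gates set no limit on NK, cDC2 or mature DC markers, and no gate used neutrophil markers. Doublets were not removed otherwise, apart from an alternative with the highest Scrublet scores (scanpy 1.11.5) left out. Counts were summed per class and library. Sums were tested with edgeR 4.0.16 in R 4.3.3 (TMM scaling, filterByExpr, quasi-likelihood test, Benjamini-Hochberg adjustment), with each class against the mean of the other 6 and library as a term, and with genotype and day as terms within a class. DESeq2 1.42.0 was an alternative. The tests were tried on simulated data. Binomial intervals are exact at 95% and cover counting error only. Labels give 1 library per group and nothing on separate animals. The p-values thus measure the spread between these sums that the terms of each fit leave. The test draws each gene's spread toward that of other genes. For genotype and day in CD8 T cells it used the spread pooled over genes alone. Positions and sequences come from RefSeq (GRCm38, the build mm10). Named with values were the 5 members of highest and the 5 detected members of lowest mean CPM, the copies with their parent genes, 12 members with known roles (the stalk genes, Rpsa, Rpl5, Rpl11, Rps6, Rps27a, Rpl22, Rps4x, Rpl10 and Rpl13a), and up to 8 called members per direction and comparison (up to 3 per related list) by size of log2 difference, and some genes that this rule or the gates use are not reported here. The members, lists and gates were chosen with earlier results of these data known.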

Additional observations from a re-analysis of the deposited data

Results flagged for a closer look

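The ribosomal protein share of UMIs differed between knockout and wild-type in opposite directions at day 9 and day 12 in 5 of the 7 classes. In other T cells, knockout minus wild-type was 2.61 percentage points at day 9 and -2.89 at day 12. In NK cells the values were 2.25 and -0.948, in cDC1 3.63 and -0.169, in cDC2 2.37 and -0.387, and in mature DC 4.78 and -0.620. Each value compares 1 library with 1 library, and the difference between the days was not tested.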

How the results depend on the processing

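Counts of members are given as higher or lower in a class. With no scaling factors, NK cells had 68 higher and 2 lower, cDC2 5 higher, mature DC 4 higher and 71 lower, CD8 T cells 1 lower, and 4 members were higher in knockout CD8 T cells. CD8 T cells also had 1 lower with DESeq2 size factors, with 1 more marker UMI per gate and at a limit of 5% mitochondrial UMIs. With no filter beyond 1 UMI, NK cells had 16 higher, cDC1 0, cDC2 1 and monocytes or macrophages 5, knockout had 5 higher in CD8 T cells and 1 in mature DC, and NK cells had 1 lower at day 12, as with the 5% limit. DESeq2 gave 5 higher in monocytes or macrophages and 2 higher in knockout CD8 T cells. In cells of 3000 to 12000 UMIs, NK cells had 2 lower, cDC1 0 higher and 67 lower, cDC2 21 lower, and mature DC 4 higher and 42 lower. With cycling cells left out, mature DC had 11 higher and knockout CD8 T cells 0. The latter count was 6 without the highest Scrublet scores, 1 with 1 more marker UMI, 2 at 5% mitochondrial UMIs and 0 in naive-like cells, an alternative added after the data were seen. In naive-like cells the log2 changes of Rps27rt (-0.0422), Rps24 (-0.0365) and Rps16 (-0.00788) reversed, and in mature DC those of Rpl24 (-0.0174) and Rps27 (-0.0211) did with no scaling factors. The causes were not tested.

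With 1 library left out in turn, members lower numbered 1 in CD8 T cells, 1 to 2 in other T cells, 2 to 4 in NK cells, 23 to 46 in cDC1 (27 without knockout at day 9), 24 to 50 in cDC2 and 18 to 28 in mature DC. Members higher numbered 13 to 23 in NK cells, 1 to 3 in cDC1 and in cDC2, 8 to 23 in mature DC (10 without wild-type at day 12), 73 to 78 in CD8 T cells and 69 to 73 in other T cells. The share difference of CD8 T cells at day 9 was 10.5 without high Scrublet scores, 10.5 at 5% mitochondrial UMIs, 11.2 in cells of 3000 to 12000 UMIs, 9.24 without cycling cells, 10.8 over non-mitochondrial UMIs and 14.8 as a median over cells. At day 12 it was 7.39 with 1 more marker UMI, and 6.81, 8.47, 5.08, 6.92 and 9.97 under the last 5 of these. In monocytes or macrophages it was 1.88 with 1 more marker UMI, 1.22 by depth, 1.94 without cycling cells and 2.58 over cells at day 9, and 1.02, 0.749, 0.564 (non-mitochondrial) and 1.03 at day 12. Of the other results, 526 counts, shares and medians stayed within a set tolerance of the main value. The tolerance was a fold limit for counts, and the spread between libraries or the counting error for shares and medians. For named genes, 1761 values kept their call or their lack of one, and no called direction turned among these. A further 121 values of named genes kept their direction and lost the call, and 2 gained it. No paired analysis was possible because the labels give 1 library per group and no replicate numbers; this holds for genotype and day, while the class comparisons carried library as a term.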

Other observations

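Rpl29, a gene of the large subunit left out of the set, had 2052 CPM in wild-type and 130 CPM in knockout over all kept cells at day 9, with 1651 and 168 CPM at day 12. The difference was present outside the T cells: in NK cells the values were 2334, 131, 2379 and 232 CPM, and in monocytes or macrophages 1365, 113, 1366 and 156 CPM. No cause was tested.

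Rpl6l, annotated as a pseudogene, gave a part of the UMIs of Rpl6 and Rpl6l that varied little over the 7 classes of a library: 5.22% to 6.44% (wild-type, day 9), 3.70% to 4.43% (knockout, day 9), 4.49% to 4.87% (wild-type, day 12) and 5.57% to 7.17% (knockout, day 12). How reads fall between Rpl6 and Rpl6l was not tested. The 76 subunit genes include Rpl3 and Rpl14, which had their lowest CPM in wild-type at day 9 in all 7 classes.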
